A study of Mus musculus with 10 samples.

Results

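The transcripts of *Cdc42* and of the 5 genes for its BORG effectors (*Cdc42ep1*, *Cdc42ep2*, *Cdc42ep3*, *Cdc42ep4* and *Cdc42ep5*) were followed in whole hearts of *Rit1* M90I/+ mice by RNA-seq. All 6 genes were found by symbol among the 54532 genes of the deposited table. FPKM are fragments scaled by gene length and by a size factor for each library. The family was chosen by the lower FPKM of *Cdc42ep2* in MEKi-treated than in vehicle hearts. The differences between groups are therefore given for its members as a description, without a test. The series compares 5 hearts of the vehicle control group with 5 hearts of mice treated with the MEK1/MEK2 inhibitor trametinib (MEKi). Daily doses of 1 mg/kg began at 4 weeks of age and went on for 20 weeks, with the hearts collected 2 hours after the final dose. Mice of both groups carried the pathogenic *Rit1* M90I allele, which had been switched on in every tissue by a cytomegalovirus-Cre deleter parent, and wild-type hearts were not analysed here. The part of the heart used for RNA is not stated.

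CDC42 is a small GTPase that, when bound to GTP, engages effector proteins controlling actin assembly, filopodia and cell polarity. The BORG proteins carry no enzymatic activity. They bind active CDC42 and the related GTPase RHOQ (TC10) through a CRIB motif, and they bind septins, the filament-forming GTPases whose organization CDC42 controls through them. In cardiac muscle CDC42 is known as a brake on hypertrophic growth, since mice lacking *Cdc42* in cardiomyocytes show exaggerated hypertrophy under load.

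The CRIB motif, which the BORG proteins share with other CDC42 effectors such as the PAK kinases, is their contact with CDC42, and the bases that encode its core are shown for this reason. They were read from the GENCODE M21 transcripts (GRCm38), 39 bases for each gene, 5′ to 3′ on the coding strand. Capitals mark the codons of 6 fixed positions of the motif (isoleucine, serine, proline, phenylalanine and both histidines), and all 5 open reading frames held 1 match.
*Cdc42ep1*: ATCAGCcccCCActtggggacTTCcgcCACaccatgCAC
*Cdc42ep2*: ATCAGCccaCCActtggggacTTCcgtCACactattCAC
*Cdc42ep3*: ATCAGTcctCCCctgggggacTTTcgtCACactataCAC
*Cdc42ep4*: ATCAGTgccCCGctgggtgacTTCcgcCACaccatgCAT
*Cdc42ep5*: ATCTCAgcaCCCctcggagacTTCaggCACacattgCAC
The stretch lies at codons 38 to 50 of 409 in *Cdc42ep1* (chr15:78847468-78847506, plus strand), codons 30 to 42 of 214 in *Cdc42ep2* (chr19:5918550-5918588, minus strand) and codons 31 to 43 of 254 in *Cdc42ep3* (chr17:79335361-79335399, minus strand). In *Cdc42ep4* it spans codons 27 to 39 of 349 (chr11:113729447-113729485, minus strand) and in *Cdc42ep5* codons 23 to 35 of 150 (chr7:4151683-4151721, minus strand). *Cdc42ep1* and *Cdc42ep2* shared 35 of the 39 bases, the most of any pair, and *Cdc42ep3* and *Cdc42ep5* shared 26, the fewest. No match was found in the *Cdc42* reading frame, which encodes the GTPase itself.

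Each heart had between 13647167 and 18474002 fragments in genes. Cardiomyocyte markers were abundant in all 10 hearts. *Xist* was at 5.16 to 6.85 FPKM in the MEKi group and at most 0.00662 FPKM in vehicle hearts, whereas the Y-linked *Ddx3y* and *Eif2s3y* were at 8.14 to 12.2 FPKM in vehicle hearts and had 0 fragments in every MEKi-treated heart. This is the pattern of male hearts in the vehicle group and of female hearts in the MEKi group. Treatment and sex, as read from these transcripts, divided the hearts in the same way. Their parts in every difference given here therefore cannot be told apart. All 6 members are autosomal.

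*Cdc42* (chromosome 4 of GRCm38, 137319696 to 137357720, minus strand) was the most abundant transcript of the family per length and varied least between hearts. It was at 51.9, 54.6, 53.1, 53.4 and 58.4 FPKM in vehicle hearts 1 to 5 and at 53.5, 52.5, 53.5, 52.7 and 56.6 FPKM in MEKi-treated hearts 1 to 5. The groups overlapped almost fully, with heart 5 the highest of each. The means were 54.3 ± 2.5 and 53.8 ± 1.63 FPKM (SD, n = 5 each), and the difference in log2(FPKM + 0.1), MEKi minus vehicle, was −0.01 (SE 0.07). Between 2207 and 2797 fragments per heart lay behind these values, and the small RNA gene *Gm25772* inside it had at most 2.

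*Cdc42ep2* (BORG1; chromosome 19, 5917556 to 5924816, minus strand) was lower in every MEKi-treated heart than in any vehicle heart, and this is the difference for which the family was chosen. Vehicle hearts 1 to 5 had 14.9, 16.2, 13.7, 14.8 and 17.1 FPKM. MEKi-treated hearts 1 to 5 had 11.6, 10.3, 10.6, 9.56 and 9.35 FPKM. The lowest vehicle value, in heart 3, therefore lay above the highest MEKi value, in heart 1. The mean went from 15.4 ± 1.33 to 10.3 ± 0.906 FPKM (SD, n = 5 each), 33.0% lower with MEKi, a log2 fold change of −0.57 (SE 0.09). Of the 6 members, *Cdc42ep2* alone had groups that did not overlap, in a contrast where 0.849% of the 12602 genes tested had every MEKi-treated heart below every vehicle heart and 0.794% had every one above. Among the 107 genes in the first of these sets, 44 had a larger decrease than *Cdc42ep2*. The Y-linked *Ddx3y* and *Eif2s3y* are among these 44, and *Xist* is in the second set. The *Cdc42ep2* value rests on 219 to 374 fragments per heart.

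The gene model behind the *Cdc42ep2* FPKM is 1491 bases long. In GENCODE M21 the gene extends 1920 bases further at its 3′ end, while the other 5 members have the same start and end in both. The model would be 3411 bases long if the whole extension is exonic and the other exons are the same. Fragments from that 3′ extension were outside the deposited model, and how they varied between hearts was not analysed here.

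*Cdc42ep1* (BORG5; chromosome 15, 78842624 to 78850897, plus strand), the most abundant effector per length, had 21.2, 18.9, 18.4, 17.4 and 19.8 FPKM in vehicle hearts 1 to 5. In MEKi-treated hearts 1 to 5 it had 13.99, 16.0, 15.5, 18.7 and 15.1 FPKM. MEKi-treated heart 4 lay within the vehicle range and the other 4 below it. The means were 19.1 ± 1.44 and 15.9 ± 1.76 FPKM (SD, n = 5 each), with a log2 fold change of −0.27 (SE 0.10). Its exons share 38 bases with *Lgals2* on the opposite strand, which was at 1.38 FPKM or less in every heart.

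*Cdc42ep4* (BORG4; chromosome 11, 113726850 to 113751881, minus strand) was also lower on average, with more spread. Vehicle hearts 1 to 5 had 5.17, 6.80, 5.81, 5.62 and 7.90 FPKM, and MEKi-treated hearts 1 to 5 had 4.63, 3.86, 5.49, 5.53 and 2.78 FPKM. MEKi-treated hearts 1, 2 and 5 were below all vehicle hearts, and hearts 3 and 4 were within their range. The mean went from 6.26 ± 1.09 to 4.46 ± 1.17 FPKM (SD, n = 5 each), with a log2 fold change of −0.51 (SE 0.19). Leaving out MEKi-treated heart 5, the lowest, gave −0.35.

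*Cdc42ep3* (BORG2; chromosome 17, 79333727 to 79355091, minus strand), an effector linked in other cells to actin and septin networks, showed no separation of the groups. It was at 8.39, 11.4, 12.9, 11.4 and 13.7 FPKM in vehicle hearts 1 to 5 and at 12.6, 11.5, 11.1, 9.93 and 13.6 FPKM in MEKi-treated hearts 1 to 5. The means, 11.6 ± 2.03 and 11.7 ± 1.42 FPKM (SD, n = 5 each), gave a log2 fold change of 0.03 (SE 0.14). The lincRNA *Gm17315* on the opposite strand overlaps 188 bases of its exons and was at 0.692 FPKM or less in every heart.

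*Cdc42ep5* (BORG3; chromosome 7, 4151260 to 4164860, minus strand) had the lowest mean FPKM of the members, close to that of *Cdc42ep4* with MEKi (4.38 and 4.46). Vehicle hearts 1 to 5 had 3.97, 3.99, 2.78, 4.74 and 8.64 FPKM, and MEKi-treated hearts 1 to 5 had 3.81, 5.25, 4.39, 4.51 and 3.95 FPKM. All MEKi-treated hearts lay inside the vehicle range, whose top was set by vehicle heart 5. The means were 4.82 ± 2.25 and 4.38 ± 0.567 FPKM (SD, n = 5 each), with a log2 fold change of −0.04 (SE 0.24), and without vehicle heart 5 the log2 fold change was 0.19. As few as 51 fragments in a heart lay behind these values.

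**Figure D1:**
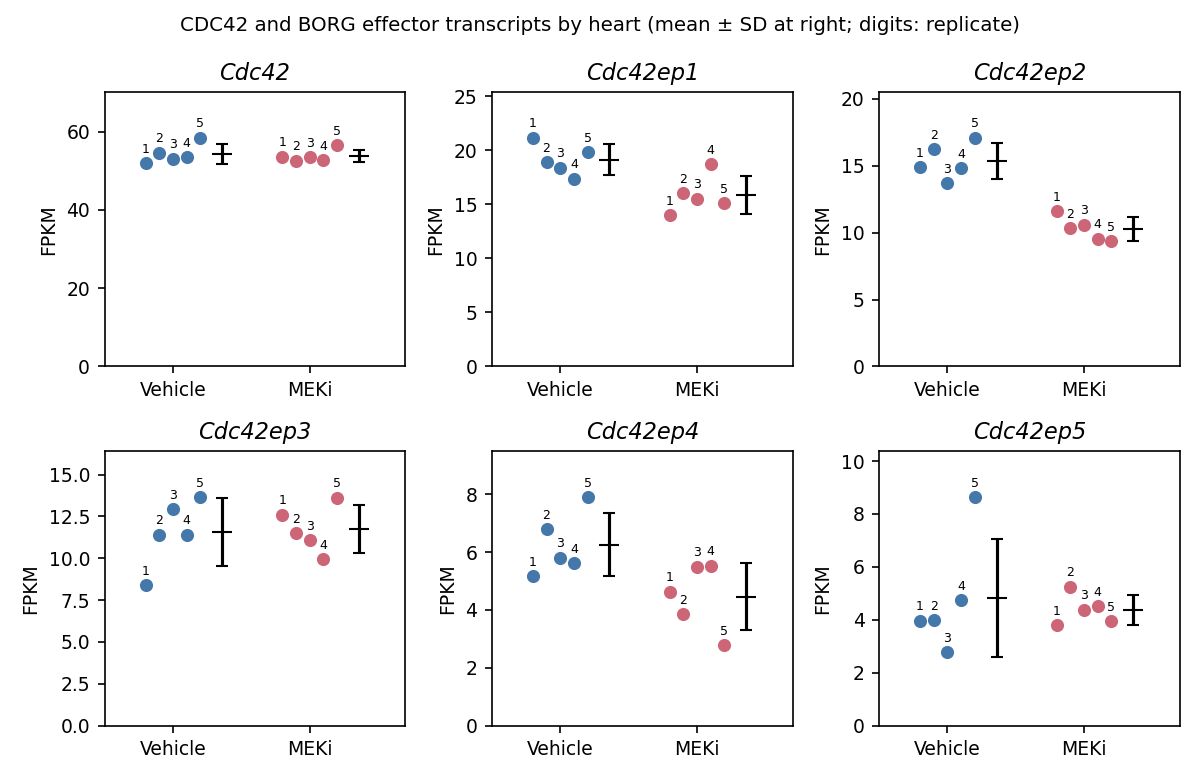
FPKM of *Cdc42* and the 5 BORG effector genes in each heart (points, with the replicate number), for the vehicle and MEKi groups, with the mean and SD of 5 hearts in black and every y axis starting at 0. *Cdc42ep2* is the member whose groups do not overlap, with vehicle hearts from 13.7 to 17.1 FPKM and MEKi-treated hearts from 9.35 to 11.6 FPKM.

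Neighbors in the order of the members by level per length were compared within hearts, as differences in log2(FPKM + 0.1). For the 3 pairs without *Cdc42ep2* a two-sided exact sign-flip permutation test over all 10 hearts is given, adjusted over the 5 neighboring pairs. The order itself came from the mean FPKM of these same 10 hearts. The adjusted p also draws on the p of both pairs with *Cdc42ep2*. *Cdc42* exceeded *Cdc42ep1* in 10 of 10 hearts, by 1.63 ± 0.20 (SD, n = 10). The exact permutation test gave p = 0.00195, which is the lowest it can reach with 10 hearts, and an adjusted p = 0.00326. *Cdc42ep3* exceeded *Cdc42ep4* in 10 of 10 hearts, by 1.14 ± 0.48 (exact permutation test, adjusted p = 0.00326). *Cdc42ep4* exceeded *Cdc42ep5* in 7 of 10 hearts, by 0.22 ± 0.48, which did not pass (exact permutation test, p = 0.178, adjusted p = 0.222), and the means were 0.46 in vehicle and −0.01 in MEKi-treated hearts.

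Both pairs with *Cdc42ep2* hold the values for which the family was chosen, so they are described by group, without a test. *Cdc42ep1* was above *Cdc42ep2* in 5 of 5 hearts of each group, by 0.32 ± 0.14 with vehicle and 0.62 ± 0.25 with MEKi (SD, n = 5 each). *Cdc42ep2* minus *Cdc42ep3* was 0.42 ± 0.27 with vehicle and −0.19 ± 0.20 with MEKi. These differences take the 1491-base *Cdc42ep2* gene model as deposited.

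*Cdc42ep2* held a different place among the effectors in vehicle and in MEKi-treated hearts. In vehicle hearts it was above *Cdc42ep3* in 5 of 5 hearts, with ratios of their FPKM from 1.06 to 1.78, and in MEKi-treated hearts in 0 of 5, with ratios from 0.687 to 0.963. Its share of the summed FPKM of the 5 effectors was 26.9 ± 1.33% in vehicle hearts and 22.0 ± 1.92% in MEKi-treated hearts (SD, n = 5 each), and these ranges did not overlap (25.5 to 28.3% against 19.8 to 24.9%). Relative to *Cdc42* in the same heart, *Cdc42ep2* went from 0.282 ± 0.0157 to 0.192 ± 0.0194 (SD, n = 5 each). The sum itself was 57.1 ± 5.80 FPKM with vehicle and 46.7 ± 1.25 FPKM with MEKi. Without *Cdc42ep2* the sum of the other 4 effectors was 41.8 ± 4.70 and 36.5 ± 1.42 FPKM, where the lowest vehicle heart (38.70 FPKM) and the highest MEKi-treated heart (38.69 FPKM) almost met. These are the same contrast as that of the choice and carry no test.

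**Figure D2:**
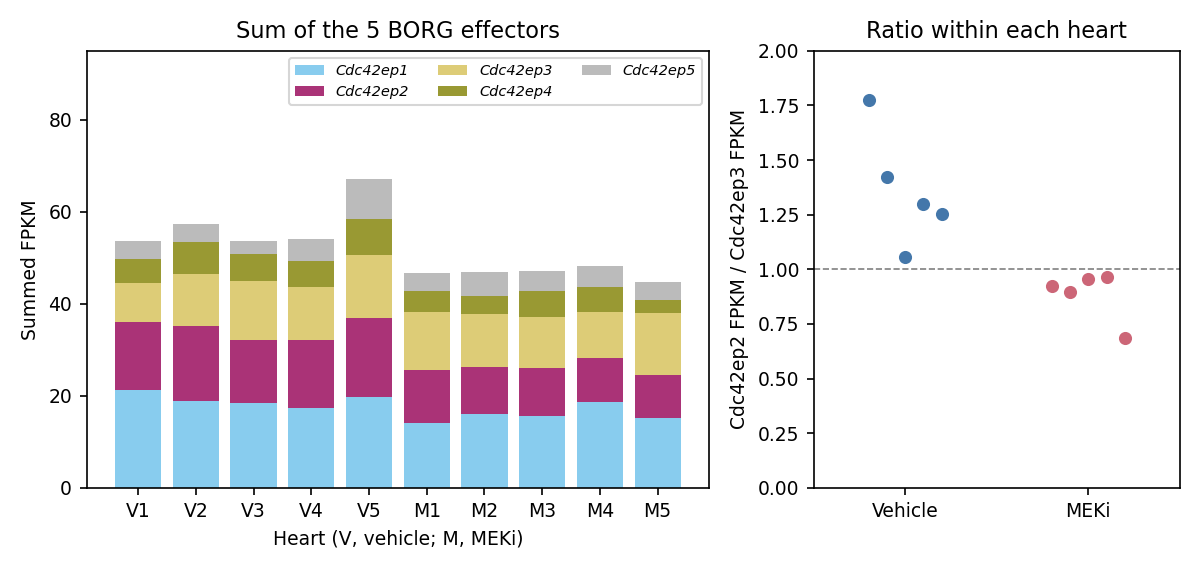
Left, summed FPKM of the 5 BORG effectors in each heart, stacked by gene, and, right, the ratio of *Cdc42ep2* to *Cdc42ep3* FPKM in each heart, with a dashed line at 1. The summed bars run from 53.6 to 67.1 FPKM in vehicle hearts and from 44.8 to 48.2 FPKM in MEKi-treated hearts, and the ratio is above 1 in all 5 vehicle hearts and below 1 in all 5 MEKi-treated hearts.

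Within groups, the members did not vary as a block. After each group's mean was subtracted, the Pearson correlation of *Cdc42ep2* over the 10 hearts was 0.53 with *Cdc42ep4*, 0.52 with *Cdc42ep5*, 0.32 with *Cdc42*, 0.17 with *Cdc42ep3* and −0.23 with *Cdc42ep1*. The highest value between other members was 0.73, for *Cdc42* and *Cdc42ep3*, and the lowest −0.62, for *Cdc42ep1* and *Cdc42ep3*. These are descriptions over 10 hearts that share libraries, and no p is given. Among the 10704 other genes averaging 1 FPKM or more, the 3 with the highest within-group correlation to *Cdc42ep2* were *Fbxl8* (Pearson 0.90, Spearman 0.88), *Clec4n* (0.89 and 0.89) and *Tcf19* (0.89 and 0.95). MEKi-treated heart 1 and vehicle heart 5 lay farthest from the median of *Cdc42ep2* once each group's mean was subtracted. Without these hearts, Pearson's coefficients were 0.73, 0.76 and 0.87. The 3 genes were picked as the highest of 10704 and are likewise given without a p. *Cdc42ep4* and *Cdc42ep5* ranked 853 and 884 in the same list.

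Whole tissue was sequenced, so fewer cells of a type and less RNA per cell cannot be told apart. Cell type markers were read beside *Cdc42ep2* for this reason. Of 7 cardiomyocyte markers 6 had a positive log2 fold change (median 0.15), and their sums ran from 15146 to 20801 FPKM with vehicle and from 14976 to 20504 FPKM with MEKi. The 5 macrophage markers all had a negative log2 fold change (median −0.35), with a summed level from 96.7 to 178 FPKM in vehicle hearts and from 96.5 to 116 FPKM in MEKi-treated hearts. Of 7 endothelial markers 6 had a negative fold change (median −0.12, sums from 115 to 186 and from 114 to 141 FPKM), and of 6 fibroblast markers 3 did (median 0.04, sums 149 to 235 and 160 to 210 FPKM). Of 5 smooth muscle and pericyte markers tested, 4 had a negative fold change (median −0.22, sums of all 6 from 142 to 205 and from 150 to 168 FPKM). That last sum is mostly *Rgs5* and *Acta2*, whose log2 fold changes were −0.31 and 0.39. *Dcn* likewise makes up most of the fibroblast sum and *C1qa* most of the macrophage sum. The 3 erythroid markers summed to between 2691 and 23823 FPKM with vehicle and between 2706 and 6909 FPKM with MEKi (median −0.90, 3 of 3 negative). Vehicle hearts 4 and 5 were at 21066 and 23823 FPKM, and the other vehicle hearts at 4017 FPKM or less. The 3 mesothelial markers summed to between 5.76 and 17.9 and between 0.691 and 12.6 FPKM (median −1.38, 3 of 3 negative). Lymphocyte markers summed to at most 4.04 FPKM and adipocyte markers to at most 15.6 FPKM in a heart. For each of these lists the groups' sums overlapped, no marker passed the threshold, and none was at 0 in all hearts. Vehicle heart 5 had the highest sums of endothelial, fibroblast, smooth muscle and macrophage markers and also the highest FPKM of every member but *Cdc42ep1*. Without it the log2 fold change of *Cdc42ep2* was −0.53. The part of these cell types in the *Cdc42ep2* difference was not tested. Atrial markers (*Myl7*, *Sln* and *Myl4*) were high in vehicle hearts 4 and 5 and MEKi-treated heart 2, at 383 to 837 FPKM summed against at most 38.1 FPKM in the others. Without these 3 hearts the log2 fold change of *Cdc42ep2* was −0.54.

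The sequence before the *Cdc42ep2* start site is shown because this is the member for which the family was chosen. It is the 250 bases upstream of the RefSeq start (chr19:5924817-5925066, minus strand, GRCm38.p6), 5′ to 3′, with motif matches in capitals.
*Cdc42ep2* promoter: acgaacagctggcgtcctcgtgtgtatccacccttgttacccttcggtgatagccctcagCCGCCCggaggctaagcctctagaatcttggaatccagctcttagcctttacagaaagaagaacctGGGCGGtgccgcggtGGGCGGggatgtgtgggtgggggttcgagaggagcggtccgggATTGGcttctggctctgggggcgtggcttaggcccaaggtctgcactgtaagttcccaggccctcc
Motifs were searched on both strands. The GC box (GGGCGG) occurred 3 times, and 32.7% of 32851 RefSeq promoter windows of this length hold one or more. The CCAAT box (CCAAT) occurred 1 time, against 33.8% of windows with one. The AP-1 motif (TGANTCA), which 6.75% of windows hold, was not in this one. The ETS motif (CCGGAAG), held by 6.91%, had no match either. The same was true of the TEAD motif (GGAATG, 12.6% of windows) and of the TATA box (TATAAA, 12.4% of windows). Its GC content was 61.2%, against a median of 52.4% over all windows. GC boxes numbered 5 in the windows of *Cdc42ep1* and *Cdc42ep3*, 2 in that of *Cdc42* and 0 in both windows of *Cdc42ep4* and in that of *Cdc42ep5*. These matches describe letters, not bound sites.

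The regulators and other effectors of CDC42 were examined as a list of 79 genes, of which 67 averaged 0.5 FPKM or more and entered the fit. None of the 67 passed an adjusted p of 0.05 (limma, Benjamini-Hochberg over 12602 genes), where 0.0794% of all genes tested did. That share is 10 genes, and the sex-linked *Xist*, *Ddx3y* and *Eif2s3y* are among them. At an unadjusted p under 0.05 there was 1 of the 67, *Rhou*, against 960 of all 12602 genes, and voom on the recovered fragments also called 0. The groups overlapped for each of the 67, where 0.849% of all genes had every MEKi-treated heart below every vehicle heart and 0.794% above, so a count of 0 in a list of this size is near the background. The log2 fold change was negative for 42 and positive for 25 (62.7% negative, against 47.9% of all genes), with a median of −0.05 against 0.01. On a TPM scale both medians were higher, at 0.03 for the list and 0.09 for all genes. Without the 3 hearts high in atrial markers they were 0.02 and 0.01. The signs counted here and by class below are those of the FPKM scale, and signs of small fold changes can turn with the scale.

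Exchange factors, which load CDC42 with GTP, had a negative log2 fold change in 13 of 14 tested genes (47.9% of all genes). Their median was −0.06, and the count carries no test, since the genes were read in the same hearts. Several of the 13 were smaller than their SE, such as *Itsn1* at −0.005 (SE 0.16). The exception and largest difference was *Fgd4* at 0.824 ± 0.206 and 1.04 ± 0.128 FPKM (SD, n = 5 each), a log2 difference of 0.32 with an SE of 0.18 (adjusted p = 0.715 by limma). GTPase-activating proteins, which switch CDC42 off, were divided 3 negative and 4 positive (median 0.03). *Arhgap44* differed most of these, at 3.70 ± 0.413 and 4.51 ± 1.02 FPKM (log2 difference 0.26 with an SE of 0.14, adjusted p = 0.699 by limma). Of the 3 dissociation inhibitors, which hold such GTPases in the cytosol, 2 were negative, and the low-level *Arhgdig* was at 0.413 ± 0.194 and 0.605 ± 0.180 FPKM (log2 difference 0.51 with an SE of 0.30, adjusted p = 0.736 by limma).

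Kinases that bind active CDC42 were divided 5 negative and 4 positive of 9 tested (median −0.06). Their log2 fold changes stayed between −0.14 and 0.11, the former for the myotonic dystrophy kinase-related *Cdc42bpa* at 1.27 ± 0.284 and 1.12 ± 0.139 FPKM (SE 0.17, adjusted p = 0.886 by limma). Actin effectors were negative in 8 of 11 (median −0.11), led by *Baiap2*, which encodes the membrane-curving protein IRSp53, at 1.48 ± 0.268 and 1.18 ± 0.239 FPKM (log2 difference −0.31 with an SE of 0.18, adjusted p = 0.715 by limma). Polarity genes were positive in 4 of 5 (median 0.13), and *Pard6a*, a subunit of the PAR complex that CDC42 activates, was at 2.89 ± 0.916 and 3.81 ± 0.867 FPKM (log2 difference 0.41 with an SE of 0.22, adjusted p = 0.693 by limma).

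Septins, the partners that BORG proteins bind, were negative in 3 and positive in 5 of 8 tested genes (median 0.06). *Sept4* was at 8.41 ± 2.41 and 6.72 ± 0.809 FPKM (SD, n = 5 each), a log2 difference of −0.28 with an SE of 0.18 (adjusted p = 0.756 by limma). *Sept2* could not be read, since the table lists 2 overlapping genes of that symbol on the same strand, at a mean of 0.149 and 0 FPKM, and reads shared by both cannot be assigned. Of the related GTPases, 7 of 10 were negative (median −0.08). *Rhou*, an atypical relative of CDC42, had the largest difference of the class, from 2.12 ± 0.153 to 1.58 ± 0.479 FPKM (SD, n = 5 each), with 4 of 5 MEKi-treated hearts below all vehicle hearts (log2 difference −0.45 with an SE of 0.19, adjusted p = 0.619 by limma).

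**Figure D3:**
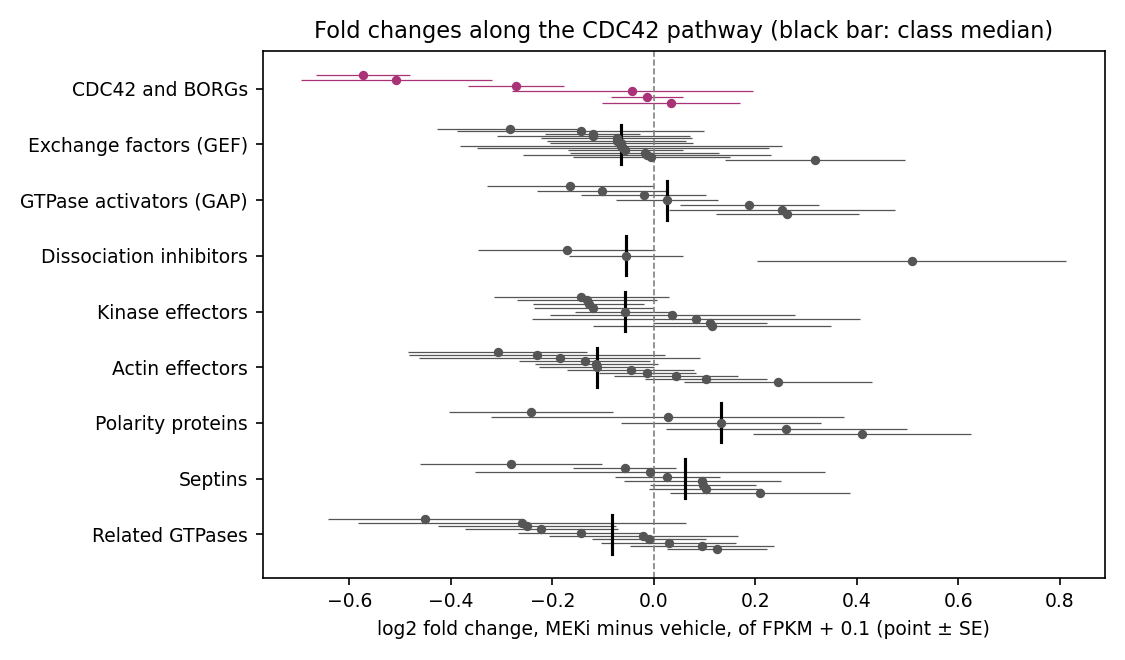
Log2 fold change of FPKM + 0.1, MEKi minus vehicle, with its SE, for each of the 6 members (top row) and the 67 other pathway genes tested, by class; black bars mark class medians and the dashed line 0. *Cdc42ep2* lies farthest left at −0.57, and class medians lie between −0.11 and 0.13.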

How the data were processed

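Poly(A)-selected RNA of *Rit1* M90I/+ hearts (5 vehicle, 5 MEKi) was sequenced. The submitters' processing notes name fastp, STAR 2.5, HTSeq 0.6.1 and mm10, and the annotation release and strand setting are not given in the sources used here. The authors deposited one table of FPKM with gene lengths and coordinates. Of 54409 genes found by identifier in GENCODE M21, 98.3% had identical coordinates. Each heart's FPKM times gene length came in whole steps (100% within 0.01), which gave fragments per gene. The library size implied by these steps differed from the heart's fragments in genes. It was 14218190 against 15371692 in vehicle heart 3, and 17139803 against 16256252 in MEKi-treated heart 1. The origin of this scaling was not analysed here.

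The members, the lists and the genes to name were chosen with earlier results of these data known. The main model was limma 3.58.1 (R 4.3.3) on log2(FPKM + 0.1), with an eBayes trend and no covariate, over the 12602 genes averaging 0.5 FPKM or more. Its p-values are two-sided and were adjusted by Benjamini-Hochberg over all these genes, and 0.05 was the threshold. Fold changes on this scale understate changes of low genes. The model was tested on simulated data. Named pathway genes are those past the threshold, those with groups that do not overlap, and the largest change in each class. *Pak5* was matched by its RefSeq synonym *Pak7*. Levels of neighboring members were compared in Python 3.11.15 with numpy 2.4.6 by exact sign-flip permutation. Alternatives were a pseudocount of 1, no filter, TPM, voom, a replicate block and leaving out hearts.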

Additional observations from a re-analysis of the deposited data

Results flagged for a closer look

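Of 50 groups of 5 hearts examined, 7 had 1 heart far from the rest by Dixon's 95% criterion, where chance gives about 1 in 20 groups. *Cdc42* in MEKi-treated heart 5 was at 56.6 FPKM, with the other MEKi-treated hearts between 52.5 and 53.5 FPKM. The 5 BORG effectors summed to 67.1 FPKM in vehicle heart 5 (others, 53.6 to 57.3 FPKM), where the fibroblast markers also summed to 235 FPKM (others, 149 to 170 FPKM). *Fgd4* was at 1.18 FPKM in vehicle heart 3 (others, 0.655 to 0.800 FPKM), and *Arhgap44* at 6.28 FPKM in MEKi-treated heart 5 (others, 3.81 to 4.48 FPKM). In MEKi-treated heart 2, adipocyte markers summed to 15.6 FPKM (others, 1.46 to 3.69 FPKM) and atrial markers to 678 FPKM (others, 1.82 to 6.64 FPKM).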

How the results depend on the processing

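Among the values recomputed, 200 stayed on their side of the threshold or moved by less than the spread between hearts, and 4 did not. Numbers of genes called counted as unchanged when of similar size, so 7 and 13 against 10 are among the 200. So is *Cdc42ep2* minus *Cdc42ep3*, although its sign differed between vehicle (0.42) and MEKi-treated hearts (−0.19). Its spread over all 10 hearts includes that group difference. On a TPM scale, which moved the median log2 fold change of all genes from 0.01 to 0.09, that of *Cdc42* was 0.065 instead of −0.01. The number of genes called, 10, was 5 without the 3 hearts high in atrial markers, an alternative chosen after seeing the data, and between 5 (without vehicle heart 2) and 13 when 1 heart was left out. With the replicate number as a block, 4 genes were called and no pathway gene was. The 5 correlations of same-numbered hearts ran from −0.15 to −0.02, inside the range of the 20 other pairs (−0.31 to 0.24). Correlations over all genes cannot tell whether the numbers pair hearts. The log2 fold change of *Cdc42ep2* lay between −0.62 and −0.50 under all alternatives, that of *Cdc42ep1* between −0.33 and −0.19 and that of *Cdc42ep4* between −0.59 and −0.35. Those of *Cdc42ep3* (−0.08 to 0.12) and *Cdc42ep5* (−0.21 to 0.23) took either sign. *Cdc42ep5* rests on the fewest fragments, 51 to 162 per heart, which limits its precision.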
